A study of Mus musculus with 13 samples.

Results

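The comparison described here set mammary glands of females with a conditional knockout of Jak1 against glands of wildtype controls at day 7 of lactation. It comprised 6 of the 13 RNA sequencing libraries of the series, 3 from knockout and 3 from control females, and the members were all columns labelled with that stage in the deposited lactation table. The other 7 libraries came from day 2 of involution and were not used here. By the numbers in their titles, the controls are M42186, M43768 and M44175 and the knockouts M44174, M42734 and M43767 (M marks a title number), and values below are listed in that order. Numbers M43768 and M43767 also occur among the involution titles, and whether these are the same animals is not told. Not given in the sources used here are the Cre driver and the cells it reaches, the part of Jak1 that is deleted, the strain and the age of the females. Total RNA came from frozen whole tissue, so each value is an average over epithelium, fat, vessels and immune cells. Each of the 3 libraries of a group carries its own number, and the p-values measure the spread between these libraries.

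JAK1 is a tyrosine kinase bound to the receptors of interleukin 6 type cytokines, interferons and several interleukins, and it phosphorylates STAT transcription factors when these receptors are engaged. In the lactating gland, prolactin acts mainly through JAK2 and STAT5 to sustain milk protein transcription, while STAT3 becomes dominant once suckling ends. Secretory epithelium at full lactation devotes most of its transcripts to milk proteins, lactose synthesis and lipid synthesis, and the mammary adipocytes are then depleted of lipid. The comparison asks which genes differ in the secretory gland when Jak1 is deleted.

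Transcript levels were given as FPKM, fragments divided by transcript length and by the mapped fragments of the library. Of 23951 gene symbols, 9560 reached 1 FPKM in at least 3 libraries and were tested, and 6677 were listed at 0 in all 6. The number of sequenced fragments is unknown, but the spacing of low values places the depth of the libraries at 1.09, 0.751 and 0.723 (controls) and 1.29, 0.985 and 1.17 (knockouts) relative to their mean. Control M44175 stood apart from the other 5 libraries. The sum of its FPKM was 871630, while those of the others ran from 312976 to 421592, and it lay at 60.2 on a first principal component holding 49.4% of the variance, where the others ran from -22.9 to 6.37. It was the highest or the lowest library in 72.2% of the genes tested, against 21.3% to 32.2% for each other library. Ribosomal protein entries made up 13.2, 14.9 and 23.05% of the FPKM outside short RNA in the controls and 17.96, 15.4 and 12.3% in the knockouts. Counts over all genes are therefore given with and without this library, and a difference is given without a library where leaving that library out moved it by over 1.5 times.

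**Figure D1:**
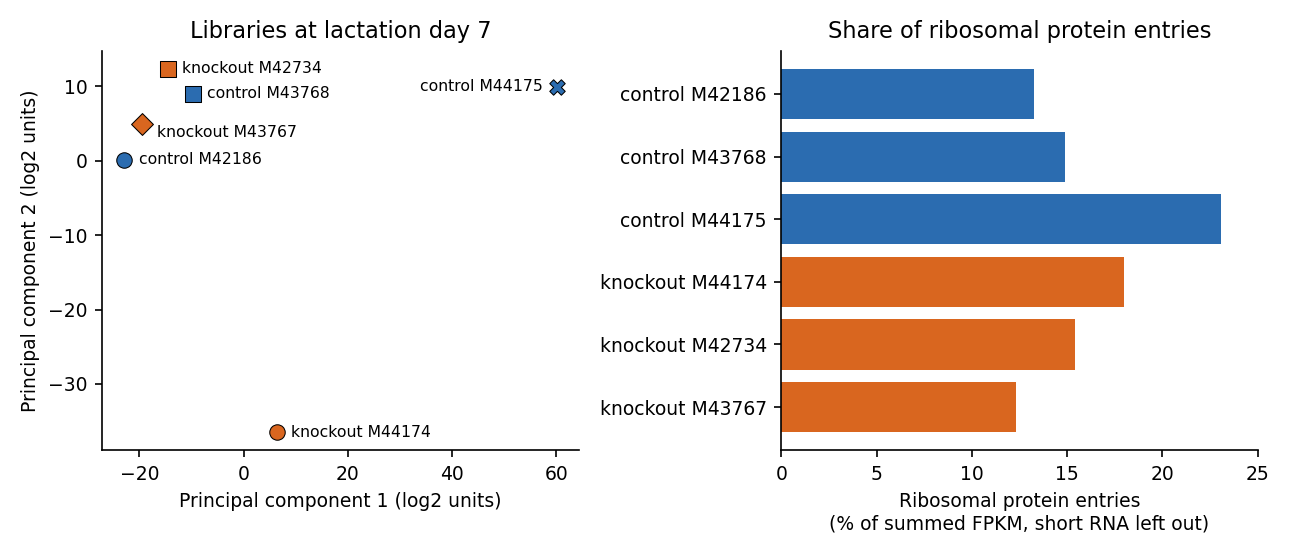
Left, the 6 libraries on the first and second principal components of log2(rescaled FPKM + 1) over the genes tested, controls in blue and knockouts in orange. Right, the share of summed FPKM (%) taken by ribosomal protein entries, with short RNA entries left out. Control M44175 lies at 60.2 on the first component and has a ribosomal protein share of 23.05%, and knockout M44174 lies at -36.5 on the second.

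The deviation of control M44175 followed transcript length. Among 560 genes whose longest annotated transcript has up to 1000 bases, the median gene was 0.97 higher on the log2 scale in control M44175 than in the mean of the other 5 libraries. Among 408 genes with transcripts over 8000 bases the median was -0.53. Control M42186 ran the opposite way, from -0.36 in the shortest class to 0.17 in the longest, as did knockout M43767, from -0.33 to 0.17. Knockout M44174 ran from 0.15 to -0.04. Control M44175 is part of the mean that each other library was set against, which by itself moves their medians the opposite way. A length was found for 9516 of the tested genes (99.5%). Differences between groups moved with the same property, with a median of -0.21 for the shortest class and 0.10 for the longest with all libraries, and of 0.15 and -0.07 without control M44175. RNA integrity and preparation dates were not at hand, and their part in this gradient was not tested.

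**Figure D2:**
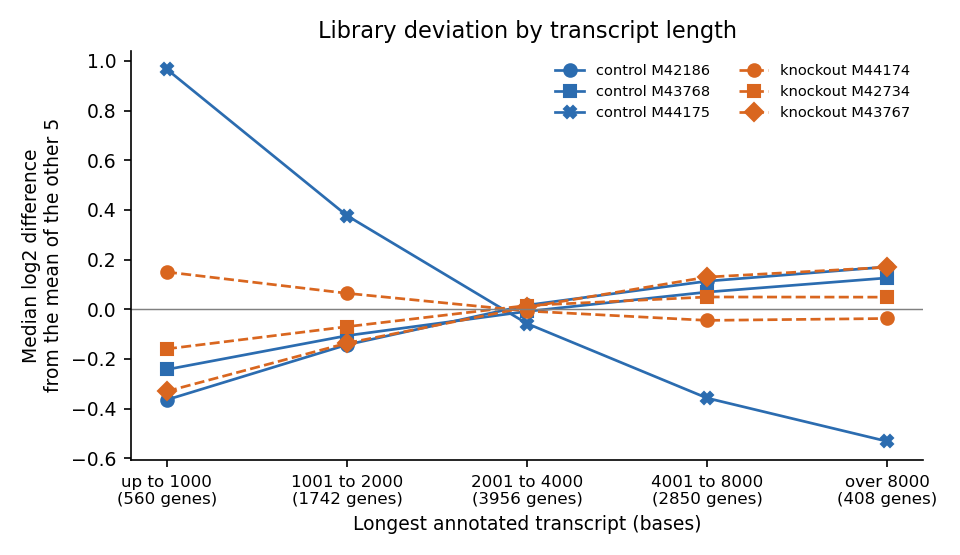
Median log2 difference of each library from the mean of the other 5 (vertical axis), for 5 classes of genes by the length in bases of the longest annotated transcript (horizontal axis). Control M44175 (crosses) falls from 0.97 to -0.53 across the classes, and the other 5 libraries stay between -0.36 and 0.17.

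Other tissue was unevenly present. The skeletal muscle actin gene Acta1 stood at 0.6097, 88.8 and 9.27 FPKM in control glands and at 293, 0.374 and 0.315 FPKM in knockout glands, and the 8 muscle markers tested had a mean log2 level of 6.78 in knockout M44174, 4.70 in control M43768 and 2.50 in control M44175, against 0.18 to 0.28 in the other 3 libraries. Lymphocyte markers were concentrated in control M43768. The B cell receptor component Cd79a stood at 0.539, 14.3 and 0.232 FPKM in control glands and at 0.195, 1.27 and 0.358 FPKM in knockout glands, and the T cell receptor component Cd3g at 0.211, 11.3 and 0 FPKM in control glands and at 0.0893, 0.816 and 0 FPKM in knockout glands. Proliferation genes set control M42186 and knockout M44174 apart from the rest, with a mean log2 level of 20 cell cycle genes of 2.66, 1.44 and 0.99 in the controls and 2.26, 1.34 and 1.51 in the knockouts. These tissue differences do not follow the group labels, and their part in the results below was not tested.

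Across all genes, 1 passed the threshold of 0.05 with limma and Benjamini-Hochberg adjustment (0.0105% of those tested), and it is an entry for ribosomal RNA precursor described further below. Unadjusted p was under 0.05 in 228 genes (2.38%), of which 170 were higher in the knockouts (1.78%) and 58 lower (0.607%). In 579 genes (6.06%) the 3 knockout FPKM as deposited all lay on 1 side of the 3 control FPKM, 276 above (2.89%) and 303 below (3.17%). An exact permutation test of 3 against 3 libraries cannot give a two-sided p below 0.1. Without control M44175, 3 genes passed (0.032% of 9372 tested), 2 higher (0.0213%) and 1 lower (0.0107%), namely Rn45s, Hba-a2 and the unnamed model Gm6548, which was chosen after its values were seen. With the same 9560 genes tested, 1 passed without that library, Rn45s. In the fit of 9372 genes without that library, 397 had an unadjusted p under 0.05 (4.24%), 265 higher (2.83%) and 132 lower (1.41%). Of the 9560 genes, 1688 separated the groups without control M44175, 821 above (8.59%) and 867 below (9.07%). These shares of all genes stand as background to the counts of list members below. The filter was reached through the libraries of 1 group alone by 39 genes, which had to differ between the groups. The median standard error of a log2 difference was 0.255 and the median half-width of its 95% interval was 0.59, a 1.51-fold change. For 7094 genes (74.2%) the interval lay within 1 log2 unit on either side of 0. Differences in the following paragraphs are log2 differences, knockout minus control, with their standard error, on the log2(FPKM + 1) scale after each library was divided by its own scaling factor. The FPKM themselves are printed as deposited, and whether the groups of a gene separate is judged on them, before that division. A narrow separation can therefore be absent on the scale of the differences. The adjusted p of the differences with limma is 0.998 unless another value stands beside them, so none of those differences passed.

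Jak1 itself stood at 14.2, 14.03 and 6.18 FPKM in control glands and at 9.51, 10.2 and 11.2 FPKM in knockout glands. With all libraries the groups overlapped, because control M44175 was the lowest of the 6, and the difference was -0.00 ± 0.35 (95% interval -0.82 to 0.81, adjusted p = 0.999 with limma). Without control M44175 both remaining controls lay above all 3 knockouts and the difference was -0.41, and it ran up to 0.22 with another library left out. This level does not check the labels, because reads from undeleted exons or from cells in which Cre is not active could contribute to it. Their part was not tested. Jak2, the kinase of the prolactin receptor, stood at 3.19, 3.36 and 2.73 FPKM in control glands and at 2.94, 2.36 and 3.09 FPKM in knockout glands, and Jak3, a kinase of lymphocyte receptors, at 2.05, 1.81 and 0.562 FPKM in control glands and at 1.71, 1.18 and 1.81 FPKM in knockout glands. Tyk2, the partner of JAK1 at interferon receptors, stood at 1.86, 2.23 and 0.8196 FPKM in control glands and at 1.67, 2.18 and 2.22 FPKM in knockout glands. With all libraries the 3 related kinases overlapped between the groups, as Jak1 did.

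The STAT genes were also at overlapping levels. Stat5a, which carries the prolactin signal, was the highest of the family at 18.6, 20.8 and 17.3 FPKM in control glands and at 12.5, 23.6 and 17.1 FPKM in knockout glands. Its close relative Stat5b stood at 6.42, 7.52 and 7.04 FPKM in control glands and at 6.59, 8.15 and 7.13 FPKM in knockout glands. Stat3, which carries signals of interleukin 6 type cytokines, stood at 9.01, 11.7 and 6.15 FPKM in control glands and at 7.85, 8.24 and 9.67 FPKM in knockout glands. Stat6, downstream of interleukin 4 and interleukin 13, stood at 8.503, 10.4 and 7.11 FPKM in control glands and at 7.08, 9.59 and 9.38 FPKM in knockout glands, and Stat2 at 2.81, 2.897 and 1.64 FPKM in control glands and at 1.66, 3.19 and 3.15 FPKM in knockout glands. Stat4 was the only one of the 11 family members below the expression filter. Over the 10 tested members, 6 differences were positive and the median was 0.05, beside 0.01 over all genes tested. Without control M44175, 9 of the 10 were negative, the median was -0.17, and Jak1, Jak2 and Jak3 lay below both remaining controls in every knockout (9.07% of all genes did so). In Jak3, knockout M43767 lay barely below control M43768, and after division by the scaling factors (0.954 and 0.998) that order reversed.

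Ligands that signal through JAK1 were barely detected at day 7. Il6, Lif, Osm, Il11, Il10, Ifng, Il4, Il13 and Ifnb1 were listed at 0 or stood under 0.3 FPKM in each library. Several of their receptors were present, and 12 of the 29 ligands and receptors listed reached the filter. The oncostatin M receptor Osmr did not, at 0.915, 0.892 and 0.5896 FPKM in control glands and at 0.852, 1.15 and 1.41 FPKM in knockout glands. The shared signalling chain of the interleukin 6 family, Il6st, stood at 8.37, 7.37 and 5.13 FPKM in control glands and at 6.66, 7.22 and 9.39 FPKM in knockout glands, and the leukaemia inhibitory factor receptor Lifr at 5.32, 5.57 and 8.38 FPKM in control glands and at 5.48, 5.47 and 6.52 FPKM in knockout glands. Interferon receptor chain Ifngr1 was the highest of the 12 members tested, at 27.02, 28.7 and 38.97 FPKM in control glands and at 27.6, 28.7 and 27.3 FPKM in knockout glands. The median difference of these 12 was -0.01, with 6 positive, and none separated the groups.

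Feedback inhibitors and targets of STAT factors showed no common direction. Socs3, a feedback inhibitor induced by STAT3, stood at 0.481, 0.795 and 0.155 FPKM in control glands and at 0.464, 0.227 and 0.383 FPKM in knockout glands, below the filter. The STAT5-induced inhibitors Cish and Socs2 stood at 9.95, 20.2 and 11.96 FPKM against 8.33, 12.2 and 13.9 FPKM and at 8.03, 11.5 and 14.4 FPKM against 5.73, 7.55 and 8.42 FPKM, controls before knockouts. The Socs2 difference was -0.50 ± 0.25, with knockout M43767 above the lowest control. Of 32 STAT3 target and acute phase genes tested, 16 were positive, the median was -0.00, and 2 were above and 2 below every control (2.89% and 3.17% of all genes). Those above were Spp1, given with the milk proteins, and Steap4, a metalloreductase, at 5.27, 3.32 and 3.59 FPKM in control glands and at 6.797, 5.75 and 8.77 FPKM in knockout glands (difference 0.74 ± 0.26). Those below were the survival factor Mcl1, at 19.5, 19.6 and 31.04 FPKM in control glands and at 16.9, 17.6 and 17.4 FPKM in knockout glands, and the immediate early gene Junb, at 2.11, 1.76 and 2.54 FPKM in control glands and at 0.849, 1.75 and 1.08 FPKM in knockout glands (difference -0.47 ± 0.21). In Junb, knockout M42734 lay barely below control M43768, and after division by the scaling factors (0.989 and 0.998) that order reversed. Values of Saa1 and Saa2, acute phase serum amyloids, turned on 1 library, with knockout M44174 at 73.1 and 58.0 FPKM and the other 5 libraries at 1.23 to 11.9 FPKM.

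The promoters of 33 members of that list were in the RefSeq table of promoters (GRCm38.p6), cut here to the 250 bases before the annotated start. The palindrome TTCNNNGAA, the core recognised by STAT dimers, was searched, and being its own reverse complement it reads the same on both strands. It occurred in 8 of the 33 (24.2%), in 8.13% of the 27025 promoters in the table and in 6.99% of the 7278 promoters of tested genes. Of those 8, Socs3, Fga, Fgb and Itih4 were below the filter. The list was chosen as STAT3 target and acute phase genes, so its share tests nothing about the knockout. None of 10 promoters of the adipocyte markers described below had it, too few to set against these shares. Steap4 and Socs3 are shown because both are listed as STAT3 targets and carry the palindrome. Steap4 lies at chr5:7960222-7960471 on the plus strand and Socs3 at chr11:117969367-117969616 on the minus strand, and capitals mark the palindrome.
Steap4: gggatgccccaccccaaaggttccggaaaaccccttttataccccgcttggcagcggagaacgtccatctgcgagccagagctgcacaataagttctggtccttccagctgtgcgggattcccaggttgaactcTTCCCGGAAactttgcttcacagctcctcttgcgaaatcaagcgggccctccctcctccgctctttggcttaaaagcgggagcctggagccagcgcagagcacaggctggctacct
Socs3: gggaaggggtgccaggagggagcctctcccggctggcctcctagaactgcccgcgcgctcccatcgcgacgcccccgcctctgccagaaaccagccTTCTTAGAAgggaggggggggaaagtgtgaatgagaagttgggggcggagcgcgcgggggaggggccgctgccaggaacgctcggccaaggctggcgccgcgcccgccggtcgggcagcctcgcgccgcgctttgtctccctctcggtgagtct

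The match begins 116 bases before the start of Steap4 and 154 bases before that of Socs3, and it describes these letters only.

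Interferon-stimulated genes ranged from below the filter to levels such as those of Bst2 and Ifi27. Bst2 averaged 45.0 FPKM in control glands and 31.3 FPKM in knockout glands, and Ifi27 averaged 44.3 FPKM and 31.5 FPKM. Of 42 genes listed, 23 reached the filter, and 7 of the 23 were positive, with a median of -0.08. None of them separated the groups, and the sign of the median turned without control M44175 (0.00475), without knockout M44174 (0.02) and with scaling to the total outside milk proteins (0.07), which moved the median of all genes from 0.01 to 0.17. Control M44175 was the highest library in 12 of the 23. Irf9, the DNA-binding part of the interferon-stimulated factor ISGF3, stood at 8.45, 12.7 and 16.3 FPKM in control glands and at 6.63, 7.85 and 8.76 FPKM in knockout glands (difference -0.53 ± 0.25). Iigp1, an interferon-inducible GTPase, ran from 2.24 to 22.8 FPKM among the controls alone. Of class I antigen presentation, 8 of 15 genes tested were positive, and on deposited FPKM only the light chain gene B2m separated the groups (3.17% of all genes lay below). It stood at 370.3, 393 and 355 FPKM in control glands and at 238, 250.002 and 353 FPKM in knockout glands (difference -0.36 ± 0.30, and -0.56 without knockout M43767). After division by the scaling factors (0.954 for knockout M43767 and 1.12 for control M44175), knockout M43767 lay above control M44175 in B2m. Of class II presentation, 2 of 7 genes were positive, and the invariant chain gene Cd74 was highest in control M43768 and knockout M42734, at 132, 191 and 43.7 FPKM in control glands and at 56.2, 165 and 114 FPKM in knockout glands.

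Milk protein genes were among the highest entries outside short RNA, and their levels varied widely among libraries. The caseins Csn1s1, Csn1s2a, Csn1s2b, Csn2 and Csn3 and the whey acidic protein gene Wap were listed at 0 in all 6 libraries. A lactating gland transcribes these genes abundantly, so their 0 is no measure of their level. The highest entry outside short RNA was Glycam1, a mucin-like whey glycoprotein, at 28734, 60238 and 106080 FPKM in control glands and at 41735, 42234 and 58235 FPKM in knockout glands. Lalba, the alpha-lactalbumin subunit of lactose synthase, stood at 5949, 13675 and 24707 FPKM in control glands and at 7529, 8903 and 11127 FPKM in knockout glands (difference -0.41 ± 0.62, -0.90 without control M42186, 0.02 without control M44175, and -0.27 without knockout M44174). Trf, the iron carrier transferrin, stood at 15391, 20572 and 14159 FPKM in control glands and at 8349, 6952 and 15257 FPKM in knockout glands (difference -0.71 ± 0.56, and -0.47 without knockout M42734). Knockouts M44174 and M42734 were the lowest in Trf, and knockout M43767 lay within the controls. The whey acidic domain gene Wfdc18 stood at 10519, 6921 and 22631 FPKM in control glands and at 9719, 11680 and 7609 FPKM in knockout glands, and Lao1, an amino acid oxidase found in mouse milk, at 8699, 6497 and 6096 FPKM in control glands and at 7933, 5142 and 8079 FPKM in knockout glands.

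**Figure D3:**
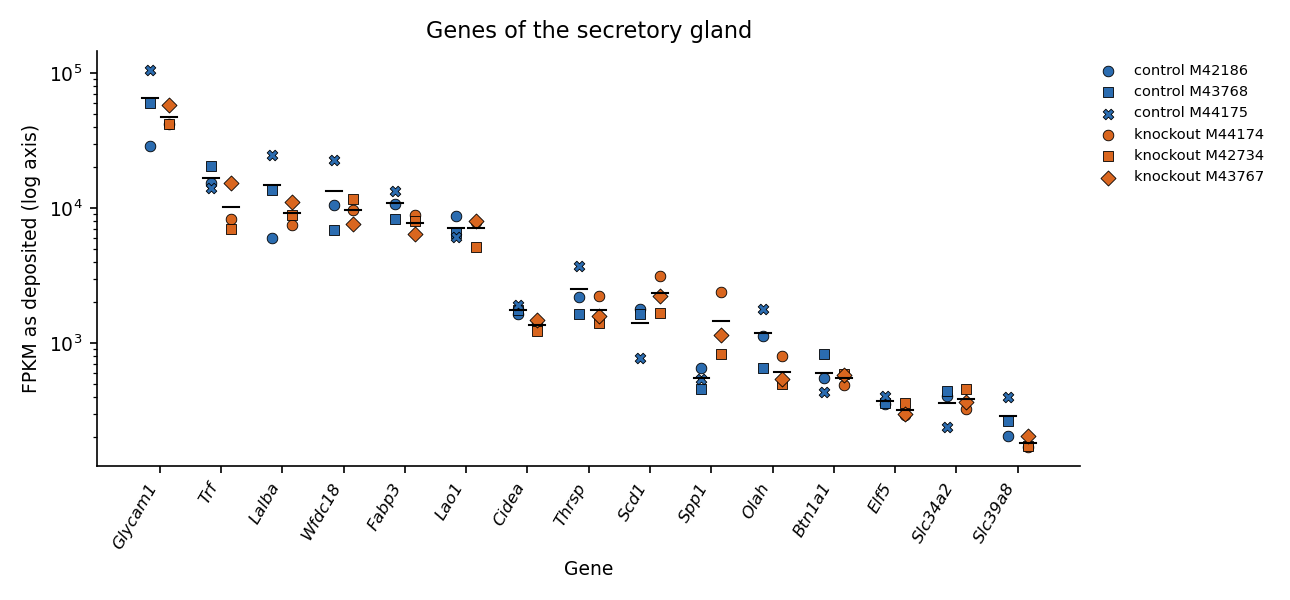
FPKM as deposited (log axis) of 15 genes of the secretory gland in each control library (blue, left) and each knockout library (orange, right), with black bars at the group means. Spp1 alone among them has its 3 knockouts above its 3 controls, and Cidea and Slc39a8 have them below.

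Spp1 stood out among the milk proteins. It encodes osteopontin, a secreted phosphoprotein that is abundant in milk, and stood at 650.5, 454 and 539 FPKM in control glands and at 2386, 824 and 1136 FPKM in knockout glands. Each knockout lay above each control, the difference was 1.34 ± 0.46, and it ran from 0.91 to 1.68 with 1 library left out. The lowest knockout, M42734, was 824 FPKM beside the highest control at 650 FPKM. Of the 14 milk protein genes tested, 4 were positive, the median was -0.21, and Spp1 was the only 1 that separated the groups (7.14% of the list, beside 2.89% above and 3.17% below of all genes). The sign of that median turned under quantile normalization (0.06), with scaling to the total outside milk proteins (0.01) and without control M42186 (0.01). The milk fat globule proteins Btn1a1 (butyrophilin), Xdh (xanthine dehydrogenase) and Mfge8 (lactadherin) overlapped between the groups. Btn1a1 stood at 552, 822 and 430.2 FPKM in control glands and at 485, 584 and 581 FPKM in knockout glands and Xdh at 354, 429 and 295 FPKM in control glands and at 169.8, 301 and 314 FPKM in knockout glands. Lactoferrin, encoded by Ltf, ran from 205 to 1044 FPKM among the controls and from 148 to 452 FPKM among the knockouts.

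Most genes of lactose synthesis overlapped between the groups. B4galt1, the galactosyltransferase that pairs with alpha-lactalbumin, stood at 235, 272 and 289 FPKM in control glands and at 219, 267 and 199 FPKM in knockout glands, and Slc2a1, the glucose transporter of the gland, at 34.9, 28.7 and 21.5 FPKM in control glands and at 26.6, 29.7 and 28.5 FPKM in knockout glands. Over 15 genes of the list 8 were positive and the median was 0.05. Pgm2, a phosphoglucomutase, lay above the controls in each knockout, at 6.904, 8.11 and 2.75 FPKM in control glands and at 8.72, 8.51 and 8.91 FPKM in knockout glands, and Pgm3, which makes UDP-GlcNAc precursors, lay below, at 2.86, 2.09 and 2.41 FPKM in control glands and at 1.97, 1.7003 and 2.06 FPKM in knockout glands. Of all genes, 2.89% lay above and 3.17% below in this way. The lowest control value of Pgm2, 2.75 FPKM, was that of control M44175. In Pgm3, knockout M43767 lay barely below control M43768, and after division by the scaling factors (0.954 and 0.998) that order reversed.

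Lipid synthesis genes had a positive median that shrank when control M44175 was left out. Of 27 genes of fatty acid and triglyceride synthesis 18 were positive, with a median of 0.30 with all libraries and 0.11 without that control, which was the lowest library in 14 of them. Fasn, fatty acid synthase, stood at 748, 246 and 97.9 FPKM in control glands and at 443, 361 and 439.5 FPKM in knockout glands, and Scd1, the stearoyl-CoA desaturase, at 1788, 1629 and 776 FPKM in control glands and at 3147, 1654 and 2216 FPKM in knockout glands (difference 0.85 ± 0.50, and 0.42 without control M44175). Olah, the thioesterase that releases the medium-chain fatty acids of milk, ran the other way, at 1130, 654 and 1774 FPKM in control glands and at 802, 495 and 537 FPKM in knockout glands (difference -0.81 ± 0.43, and -0.51 without control M44175). Fabp3, the fatty acid carrier of the secretory cell, stood at 10673, 8292 and 13438 FPKM in control glands and at 8855, 7958 and 6465 FPKM in knockout glands. These 4 genes overlapped between the groups. Of the 27, 2 lay above every control in each knockout (2.89% of all genes did so), and both are enzymes of triglyceride assembly. Dgat2, which makes triglyceride from diacylglycerol, stood at 11.2, 13.3 and 12.8 FPKM in control glands and at 26.2, 21.1 and 46.2 FPKM in knockout glands (difference 1.25 ± 0.31). Gpam, which attaches the first acyl chain to glycerol phosphate, stood at 5.87, 5.08 and 4.27 FPKM in control glands and at 9.56, 6.32 and 7.68 FPKM in knockout glands (difference 0.59 ± 0.24). Both enzymes are also active in adipocytes. Dgat1, the other enzyme of the final step, stood at 14.4, 16.5 and 22.8 FPKM in control glands and at 23.1, 19.7 and 19.1 FPKM in knockout glands.

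Cholesterol synthesis genes were positive in 20 of 21 tested, with a median of 0.37, but none separated the groups. Control M44175 was the lowest library in 12 of the 21, and the median was 0.18 without it, with 19 positive. Sqle, squalene epoxidase, stood at 29.1, 38.2 and 28.1 FPKM in control glands and at 45.1, 42.5 and 38.03 FPKM in knockout glands, and Fdps, farnesyl diphosphate synthase, at 67.9, 49.01 and 31.7 FPKM in control glands and at 79.7, 68.4 and 54.7 FPKM in knockout glands. Hmgcs1 was listed at 0 in all 6 libraries, like the caseins.

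On deposited FPKM, calcium and zinc genes included 3 of 15 in which each knockout lay below each control, as did 3.17% of all genes. Pthlh, the parathyroid hormone related protein that mobilises bone calcium for milk, stood at 32.1, 32.4 and 33.9 FPKM in control glands and at 20.7, 25.3 and 27.1 FPKM in knockout glands (difference -0.36 ± 0.22). Slc39a8, a zinc and manganese importer, stood at 204, 265 and 398 FPKM in control glands and at 169, 173 and 203 FPKM in knockout glands (difference -0.55 ± 0.30, and -0.34 without control M44175). In Slc39a8, knockout M43767 lay barely below control M42186, and after division by the scaling factors (0.954 and 0.964) that order reversed. Mt2, a zinc-binding metallothionein, stood at 47.2, 5.69 and 9.61 FPKM in control glands and at 4.57, 4.07 and 5.03 FPKM in knockout glands (difference -1.39 ± 0.67, and -0.50 without control M42186), where control M42186 was far above the rest. Atp2b2, the pump that moves calcium across the apical membrane into milk, overlapped at 50.9, 61.4 and 30.9 FPKM in control glands and at 30.999, 46.8 and 47.1 FPKM in knockout glands. So did Slc30a2, the exporter that loads zinc into milk vesicles, at 12.1, 13.7 and 14.6 FPKM in control glands and at 15.9, 11.3 and 11.8 FPKM in knockout glands. The list median was -0.08 and turned positive with scaling to the total outside milk proteins (0.12), without control M42186 (0.02), without control M43768 (0.03) and without knockout M44174 (0.05).

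Amino acid transporters were lowest in control M44175 in 11 of 14 genes tested. Slc7a5, the light chain of the large neutral amino acid carrier, stood at 69.2, 49.7 and 13.4 FPKM in control glands and at 26.9, 23.1 and 24.3 FPKM in knockout glands (difference -0.47 ± 0.58, 0.04 without control M42186, -0.23 without control M43768, and -1.20 without control M44175). Its heavy chain Slc3a2 stood at 52.8, 43.7 and 23.9 FPKM in control glands and at 32.7, 21.96 and 28.8 FPKM in knockout glands. In both chains controls M42186 and M43768 lay above all knockouts and control M44175 was at or near the bottom. Slc1a5, a glutamine carrier, was the only 1 of the list that separated the groups with all libraries (2.89% of all genes lay above). It stood at 7.32, 6.86 and 4.43 FPKM in control glands and at 8.87, 8.48 and 16.9 FPKM in knockout glands (difference 0.80 ± 0.34, and 0.49 without knockout M43767). Slc34a2, the phosphate carrier of the alveolar membrane, stood at 405, 441 and 238 FPKM in control glands and at 323, 457 and 368 FPKM in knockout glands.

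Markers of the secretory epithelium mostly overlapped between the groups. Elf5, the transcription factor of alveolar cells, stood at 355, 361 and 404 FPKM in control glands and at 293, 358 and 297 FPKM in knockout glands. Epcam, an epithelial adhesion molecule, stood at 74.9, 72.3 and 94.1 FPKM in control glands and at 78.8, 66.2 and 58.6 FPKM in knockout glands and Krt18, a luminal keratin, at 46.2, 65.8 and 50.4 FPKM in control glands and at 37.04, 54.1 and 46.3 FPKM in knockout glands. Of 10 luminal markers tested, 5 were positive and the median was -0.04. The luminal surface protein gene Cd24a alone separated the groups (3.17% of all genes lay below), at 320.4, 336 and 398 FPKM in control glands and at 244, 316 and 259 FPKM in knockout glands (difference -0.30 ± 0.27). The prolactin receptor gene Prlr stood at 6.28, 10.2 and 9.74 FPKM in control glands and at 9.77, 5.94 and 7.81 FPKM in knockout glands, and growth hormone receptor gene Ghr at 8.62, 11.5 and 21.4 FPKM in control glands and at 20.02, 15.9 and 19.6 FPKM in knockout glands. Control M42186 was the highest library in 8 of 10 basal markers, with keratin Krt14 at 34.7, 8.34 and 12.7 FPKM in control glands and at 10.5, 14.4 and 12.9 FPKM in knockout glands. Of 29 endoplasmic reticulum and secretory pathway genes, 16 were positive with a median of 0.02, and the chaperone Hspa5 stood at 177, 135 and 112 FPKM in control glands and at 137, 134 and 148 FPKM in knockout glands.

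Genes of adipocytes had the highest median of the lists with all libraries. Of 11 tested, 10 were positive, the median was 0.77, 4 lay above every control in each knockout (2.89% of all genes), 1 lay below (3.17%), and 5 had an unadjusted p under 0.05 and were higher (1.78%). None passed over all genes, with a smallest adjusted p of 0.644 (limma). Plin1, the perilipin that coats the adipocyte lipid droplet, stood at 3.13, 2.57 and 3.61 FPKM in control glands and at 8.99, 7.52 and 11.98 FPKM in knockout glands. Its difference was 1.40 ± 0.23 (adjusted p = 0.644 with limma, and 0.0278 to 1.00 over 18 alternatives), and it ran from 1.22 to 1.55 with 1 library left out. Plin4, a perilipin of small droplets, stood at 2.197, 1.29 and 0.913 FPKM in control glands and at 3.62, 3.32 and 3.91 FPKM in knockout glands (difference 0.97 ± 0.25). Pparg, the transcription factor of fat cells, stood at 4.38, 4.08 and 4.25 FPKM in control glands and at 6.54, 6.404 and 9.2996 FPKM in knockout glands (difference 0.72 ± 0.22), with a narrow spread among the controls. Lipe, hormone-sensitive lipase, stood at 8.28, 10.6 and 5.65 FPKM in control glands and at 10.9, 14.7 and 22.9 FPKM in knockout glands (difference 0.94 ± 0.35).

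The other 6 adipocyte genes apart from Cidea did not separate the groups with all libraries, and 5 of them were high in control M44175. The exception was Lep, the satiety hormone leptin, which was lowest there, at 4.28, 0.984 and 0.554 FPKM in control glands and at 3.496, 2.09 and 4.45 FPKM in knockout glands. Adiponectin, encoded by Adipoq, stood at 27.7, 33.5 and 94.1 FPKM in control glands and at 112, 58.2 and 93.4 FPKM in knockout glands (difference 0.98 ± 0.45, and 1.46 without control M44175). Cidec, a fusion protein of large lipid droplets, stood at 15.1, 14.96 and 35.1 FPKM in control glands and at 39.3, 29.1 and 41.7 FPKM in knockout glands (difference 0.89 ± 0.33). Complement factor D, encoded by Cfd, stood at 194, 308 and 951 FPKM in control glands and at 490.1, 538 and 903 FPKM in knockout glands, and the fatty acid carrier Fabp4 at 543, 541 and 1556 FPKM in control glands and at 1120, 761 and 1046 FPKM in knockout glands. In Adipoq, Cidec, Cfd and Fabp4 control M44175 was among the 3 highest libraries and the other 2 controls were the lowest of the 6. Without control M44175, 9 of the 11 genes lay above both remaining controls in each knockout (8.59% of all genes did so) and the median was 0.84. Cidea ran the other way. It belongs to the list as a fat cell gene, but lactating epithelium also expresses it for milk lipid secretion, and it stood at 1643, 1748 and 1910 FPKM in control glands and at 1391, 1236 and 1477 FPKM in knockout glands (difference -0.30 ± 0.34). The brown fat gene Ucp1 stood under 1 FPKM in each library. In whole glands, more cells of a type and more RNA of that type per cell cannot be told apart.

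Fibroblast and matrix genes also had positive medians. All 8 fibroblast genes tested were positive, with a median of 0.71, and the 2 growth factor receptors lay above every control in each knockout, as did 2.89% of all genes. Pdgfra stood at 1.01, 0.256 and 0.471 FPKM in control glands and at 1.45, 1.503 and 1.39 FPKM in knockout glands (difference 0.69 ± 0.21), and Pdgfrb, which also marks pericytes, at 1.46, 1.39 and 0.524 FPKM in control glands and at 1.53, 2.58 and 2.35 FPKM in knockout glands (difference 0.61 ± 0.26, and 0.37 without control M44175). Collagen genes overlapped because control M42186 was high, as in Col1a1 at 18.5, 3.87 and 1.82 FPKM in control glands and at 11.01, 15.2 and 15.1 FPKM in knockout glands. Of 11 genes of matrix and proteolysis, 9 were positive with a median of 0.19. On deposited FPKM, 3 matrix metalloproteinases lay above every control in each knockout, beside the same 2.89%. Mmp2, a gelatinase, stood at 4.12, 1.85 and 1.28 FPKM in control glands and at 4.15, 8.14 and 5.103 FPKM in knockout glands (difference 1.08 ± 0.37). Mmp3, stromelysin 1, stood at 2.93, 1.25 and 3.26 FPKM in control glands and at 8.89, 4.96 and 4.94 FPKM in knockout glands (difference 1.12 ± 0.31). Mmp14, the membrane enzyme that activates MMP2, stood at 2.02, 1.57 and 0.869 FPKM in control glands and at 2.05, 3.23 and 3.33 FPKM in knockout glands (difference 0.68 ± 0.26). In Mmp2 and Mmp14 the lowest knockout, M44174, lay barely above the highest control, M42186. After division by the scaling factors (0.992 for M44174 and 0.964 for M42186) that order reversed in both genes. The inhibitor gene Timp1 stood at 25.4, 16.8 and 21.9 FPKM in control glands and at 13.04, 10.04 and 20.8 FPKM in knockout glands.

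In 6 of 8 endothelial genes tested each knockout lay above each control (2.89% of all genes), the median was 0.59, and 4 were higher with an unadjusted p under 0.05 (1.78%). Tek reached the filter through the knockouts alone, and without it the counts were 5 and 3 of 7 and the median was 0.55. Tie1, an endothelial receptor kinase, stood at 1.69, 1.601 and 1.45 FPKM in control glands and at 3.12, 3.27 and 3.195 FPKM in knockout glands (difference 0.75 ± 0.17). Tek, the angiopoietin receptor, stood at 0.925, 0.974 and 0.781 FPKM in control glands and at 1.76, 1.55 and 2.29 FPKM in knockout glands, and Cdh5, vascular cadherin, at 4.99, 5.82 and 3.403 FPKM in control glands and at 6.92, 8.38 and 11.9 FPKM in knockout glands (difference 0.86 ± 0.29). Pecam1, Kdr and Emcn were the others above every control. Egfl7 was negative and was highest in control M44175, at 19.97 FPKM. Of 7 macrophage genes tested 5 were positive and none separated the groups, with the complement gene C1qa at 23.8, 21.7 and 12.3 FPKM in control glands and at 13.9, 15.98 and 25.01 FPKM in knockout glands.

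**Figure D4:**
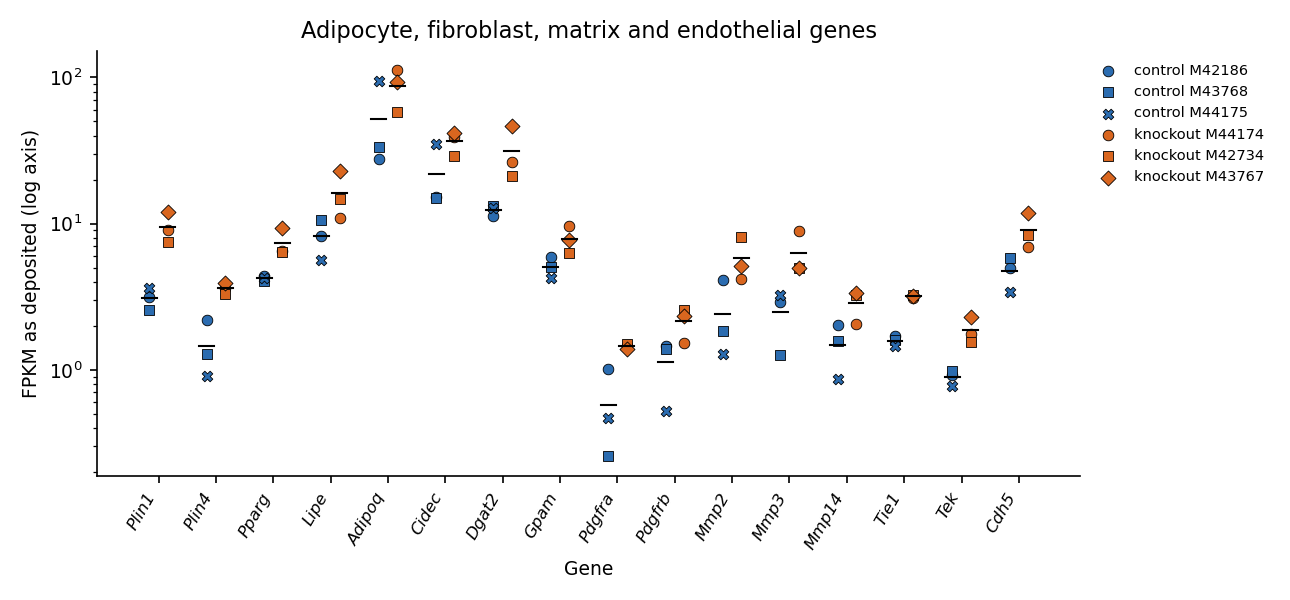
FPKM as deposited (log axis) of 16 genes of adipocytes, triglyceride synthesis, fibroblasts, matrix and endothelium in each control library (blue, left) and each knockout library (orange, right), with black bars at the group means. All but Adipoq and Cidec have their 3 knockouts above their 3 controls, and in those 2 genes control M44175 (cross) lies among the knockouts.

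The list means summarise these stromal differences by library. Over adipocyte genes the mean log2 level was 4.82, 4.83 and 5.23 in the controls and 5.65, 5.43 and 6.05 in the knockouts. Fibroblast genes averaged 3.54, 2.41 and 2.84 in the controls and 3.698, 3.71 and 3.63 in the knockouts, and endothelial genes 2.22, 2.33 and 2.13 in the controls and 2.603, 2.67 and 2.99 in the knockouts. In all 3 lists each knockout lay above each control, while the luminal epithelial mean was 5.57, 5.14 and 5.09 in the controls and 5.26, 5.21 and 5.19 in the knockouts. The medians of adipocyte, fibroblast, endothelial and matrix genes stayed positive in all 18 alternative settings, from 0.57 to 0.98, 0.45 to 1.24, 0.44 to 0.74 and 0.13 to 0.41. The highest library was knockout M43767 for adipocyte and endothelial genes and knockout M42734 for fibroblast genes. The amount of adipose or connective tissue in each sample was not recorded in the labels, and its part in the difference was not tested.

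Among single genes above 0 in all 6 libraries, those with the largest positive differences that separated the groups, with an average of 5 FPKM or more in a group, were Hba-a1, Rbp4, Plin1, Car3, Pnpla3, Gsn, Cyp2e1, Spp1, Slc36a2 and Dgat2. Several are known products of fat tissue. Rbp4, the plasma retinol carrier, stood at 7.63, 6.21 and 10.6 FPKM in control glands and at 41.4, 12.6 and 24.6 FPKM in knockout glands (difference 1.52 ± 0.40). Car3, a carbonic anhydrase abundant in fat and muscle, stood at 112, 152 and 159.8 FPKM in control glands and at 361, 285 and 421 FPKM in knockout glands (difference 1.39 ± 0.29). Gsn, the actin-severing protein gelsolin, stood at 41.96, 39.3 and 56.8 FPKM in control glands and at 121, 98.2 and 119.8 FPKM in knockout glands (difference 1.36 ± 0.24, adjusted p = 0.724 with limma, and 0.0165 to 1.00 over 18 alternatives). Cyp2e1, a cytochrome P450 of small molecules, stood at 18.8, 18.5 and 35.2 FPKM in control glands and at 53.4, 40.9 and 88.2 FPKM in knockout glands (difference 1.35 ± 0.36). Pnpla3, a lipid droplet acylhydrolase, stood at 3.87, 6.76 and 1.93 FPKM in control glands and at 13.6, 7.32 and 13.1 FPKM in knockout glands (difference 1.37 ± 0.41), where the gap between the groups was narrow. Slc36a2, a proton-coupled carrier of small amino acids, stood at 1.59, 1.35 and 1.23 FPKM in control glands and at 4.56, 2.57 and 8.74 FPKM in knockout glands (difference 1.32 ± 0.36).

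Among genes above 0 in all 6 libraries, separating the groups and averaging 5 FPKM or more in a group, those with the largest negative differences were Hba-a2, Mt2, Igf1, Defb1, Sectm1a, Bbox1, Cck, Wdr92, Cyba and S100a4. Igf1, insulin-like growth factor 1, stood at 11.6, 5.28 and 9.99 FPKM in control glands and at 2.89, 1.37 and 4.53 FPKM in knockout glands (difference -1.31 ± 0.38). Sectm1a, a secreted and membrane protein of immune co-stimulation, stood at 14.7, 11.9 and 11.2 FPKM in control glands and at 3.32, 7.98 and 3.31 FPKM in knockout glands (difference -1.24 ± 0.33). Cck, cholecystokinin, stood at 64.3, 154 and 102 FPKM in control glands and at 51.2, 49.6 and 52.04 FPKM in knockout glands (difference -0.90 ± 0.33, and -0.58 without control M43768), with a narrow spread among the knockouts. Cyba, a subunit of the phagocyte and epithelial NADPH oxidases, stood at 8.11, 13.98 and 17.8 FPKM in control glands and at 5.93, 6.02 and 6.52 FPKM in knockout glands (difference -0.88 ± 0.26). S100a4, a calcium-binding protein of stromal cells, stood at 7.92, 14.01 and 7.94 FPKM in control glands and at 5.701, 6.15 and 3.0002 FPKM in knockout glands (difference -0.83 ± 0.32).

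The size of 5 of these differences rested on 1 control, among them Mt2 and Cck above. Defb1, an epithelial beta-defensin, stood at 3.89, 3.69 and 14.8 FPKM in control glands and at 1.85, 0.804 and 3.16 FPKM in knockout glands (difference -1.30 ± 0.48, and -0.78 without control M44175). Bbox1, the last enzyme of carnitine synthesis, stood at 11.97, 9.84 and 36.98 FPKM in control glands and at 5.698, 8.51 and 5.42 FPKM in knockout glands (difference -1.17 ± 0.42, and -0.67 without control M44175). In Wdr92, at 20.9, 6.24 and 6.81 FPKM in control glands and at 4.304, 4.38 and 5.26 FPKM in knockout glands (difference -0.88 ± 0.44, and -0.32 without control M42186), it was control M42186 that stood above the others. Defb1, Bbox1 and Wdr92 separated the groups with all libraries, so leaving out a control could not undo that.

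The alpha globin genes Hba-a1 and Hba-a2 differed in opposite directions. Hba-a1 stood at 10.6, 10.8 and 0.5197 FPKM in control glands and at 18.5, 45.4 and 22.6 FPKM in knockout glands (difference 2.26 ± 0.79, and 1.26 without control M44175), and Hba-a2 at 10.5, 10.6 and 29.6 FPKM in control glands and at 1.09, 0.279 and 0.06995 FPKM in knockout glands (difference -3.45 ± 0.40, adjusted p = 0.127 with limma, and 8.66e-04 to 1.00 over 17 alternatives). Hba-a2 passed the threshold without control M44175 (though not with the same 9560 genes tested), with array weights, with scaling to the total outside milk proteins and with the length trend removed. The sum of both was 21.1, 21.4 and 30.1 FPKM in control glands and 19.6, 45.7 and 22.7 FPKM in knockout glands, which overlap. Hba-a1 made up 50.3%, 50.3% and 1.73% of that sum in the controls and 94.4%, 99.4% and 99.7% in the knockouts. The longest reading frames of the 2 genes have 429 bases each and differ at 1 of them (99.8% identity), the substitution C381T, written as the Hba-a1 base, the position counted from 1 at the A of the start codon, and the Hba-a2 base. Bases 351 to 411 of both are shown because that position is the only one in the coding part at which a read can be assigned, and the capital marks it.
Hba-a1: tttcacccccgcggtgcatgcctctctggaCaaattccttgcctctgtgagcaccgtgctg
Hba-a2: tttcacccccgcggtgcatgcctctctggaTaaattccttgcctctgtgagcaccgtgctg

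No source used here tells how reads were divided between such copies, so the level of each copy is uncertain. The beta globin entry Hbb-bs, which also has close copies, varied within both groups, at 0.0338, 32.4 and 33.8 FPKM in control glands and at 0.0231, 0.0217 and 17.7 FPKM in knockout glands.

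The only gene past the threshold was Rn45s, the entry for the precursor of ribosomal RNA. Each of the 3 controls had a listed 0, whereas the knockouts had 1986, 3982 and 508 FPKM. Because a listed 0 can be a missing estimate, no fold is given. Mir22 showed the same form, with a listed 0 in each control and 14.3, 19.5 and 87.6 FPKM in the knockouts. Both entries reached the filter through the knockouts alone and so had to differ, and without genes at 0 in a whole group none passed (smallest adjusted p = 0.263 with limma, with 226 genes at an unadjusted p under 0.05). The host transcript of Mir22, Mir22hg, stood at 2.44, 2.24 and 3.83 FPKM in control glands and at 2.42, 2.49 and 2.39 FPKM in knockout glands. In all, 72 entries were listed at 0 in 1 library and at 100 FPKM or more in another, and 67 of these were short RNA entries. Short RNA entries were taken by symbol (starting Mir, Snor, Rny, Rn or Scarna) whatever their length, so Rn45s is counted among them.

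Mir6236 took 8.73, 19.6 and 29.1% of the summed FPKM in the controls and 18.4, 17.997 and 10.5% in the knockouts. Glycam1 was above it in control M42186 (28734 against 27324 FPKM) and in knockout M43767 (58235 against 36091 FPKM). The mature sequences of Mir6236 and Mir22 from the RefSeq table (GRCm38.p6) are shown, with the seed, bases 2 to 8, in capitals. Mir6236 lies at chr9:110281353-110281371 on the plus strand, and the arms of Mir22 at chr11:75463734-75463755 and chr11:75463772-75463793, also on the plus strand.
mmu-miR-6236: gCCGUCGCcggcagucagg
mmu-miR-22-5p: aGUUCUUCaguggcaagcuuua
mmu-miR-22-3p: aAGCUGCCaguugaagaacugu

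The 3 seeds differ from each other. Dividing by a short length makes a few fragments into a large FPKM. The length used for Mir6236 and Mir22 and the fragments behind their values are not given.

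Agouti, gene a, was uneven among the controls. Its product is a secreted protein that sets coat colour, and it stood at 652, 1.54 and 1.33 FPKM in control glands and at 215, 321 and 186 FPKM in knockout glands, so control M42186 held the highest value and the other 2 controls the lowest. When control M42186 was left out, it passed the threshold beside Rn45s. Entries highest in control M44175 relative to the other libraries were the RNA component of mitochondrial RNA processing endoribonuclease, Rmrp, at 2.21, 11.2 and 421 FPKM in control glands and at 14.96, 23.2 and 1.03 FPKM in knockout glands, the ribonuclease P RNA Rpph1, Fxyd6, Serpina3g and Hbb-bs. Those lowest in it, besides a and Hba-a1, were the cell cycle inhibitor gene Cdkn1a, at 31.8, 1.39 and 0.686 FPKM in control glands and at 10.6, 1.902 and 17.5 FPKM in knockout glands, the desaturase gene Scd2, at 77.6, 67.96 and 15.5 FPKM in control glands and at 88.6, 71.02 and 79.9 FPKM in knockout glands, and Prol1.

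The direction of several lists rested on control M44175. Of 89 ribosomal protein entries, chosen after their values were seen, 7 were positive with a median of -0.34 with all libraries, and 64 of 88 were positive with a median of 0.08 without it. It was the highest library in 79 of the 89. Among 30 genes of oxidative phosphorylation, 13 were positive with all libraries and 30 without it, and it was the highest library in 24. Over 31 lists with a value in both fits, the sign of the median turned in 11 when this library was left out. The plot of list medians gives both values.

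**Figure D5:**
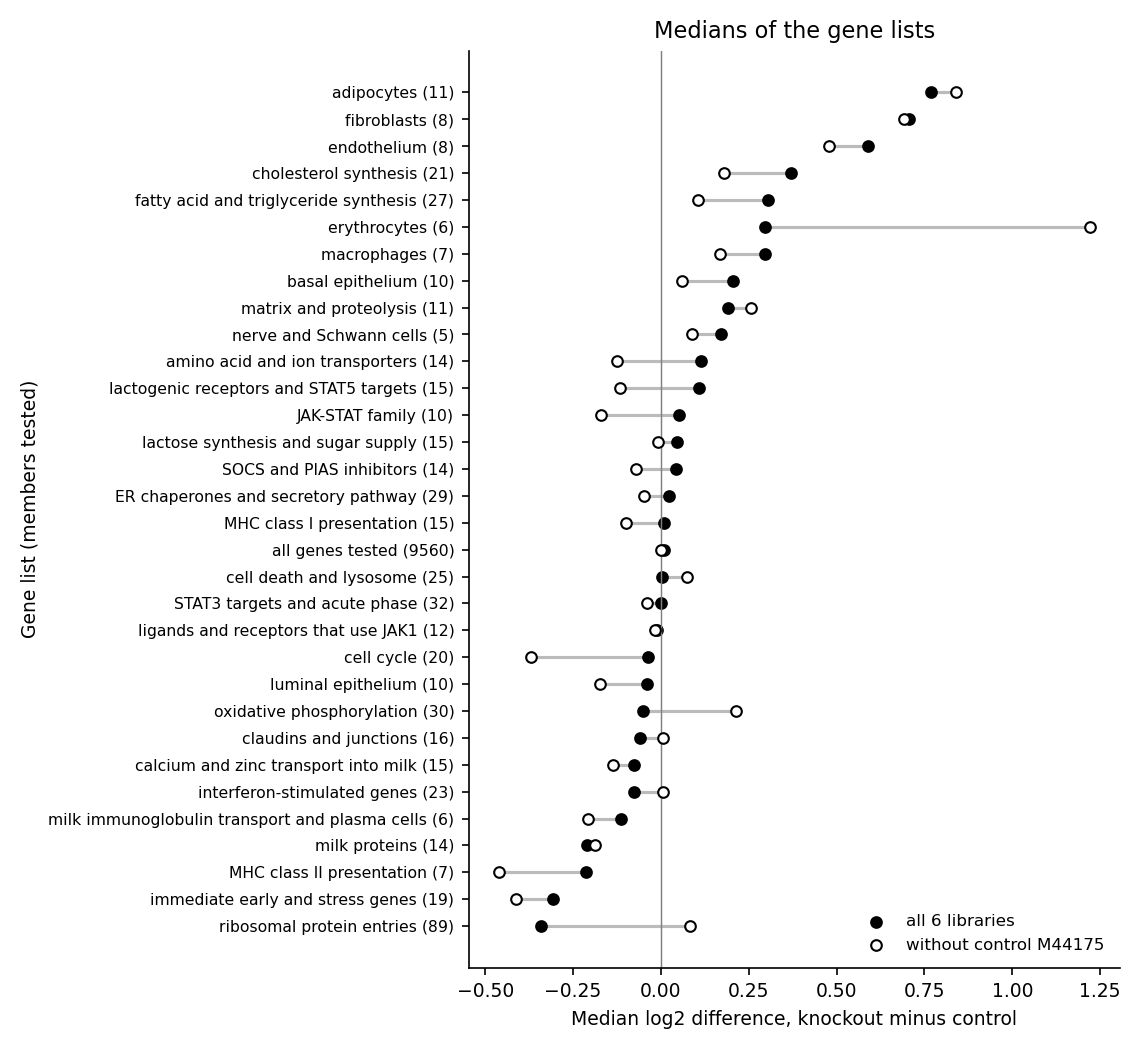
Median log2 difference, knockout minus control, of each gene list with at least 5 tested members (number tested in brackets), with all 6 libraries (black) and without control M44175 (white). Adipocyte, fibroblast and endothelial genes lie at 0.77, 0.71 and 0.59 with all libraries and at 0.84, 0.69 and 0.48 without it, and ribosomal protein entries move from -0.34 to 0.08. The erythrocyte list moves from 0.30 to 1.22, where 5 of its 6 genes were tested.

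Immediate early genes, which cells induce within minutes of stimulation or handling, had a negative median. Of 19 tested, 6 were positive, the median was -0.31, and 2 lay below every control in each knockout (3.17% of all genes did so). Ier2 stood at 7.88, 6.17 and 8.78 FPKM in control glands and at 4.38, 5.07 and 4.58 FPKM in knockout glands (difference -0.53 ± 0.20), beside Junb, given above. Control M42186 was the highest library in Fos, at 9.71, 2.19 and 1.101 FPKM in control glands and at 1.43, 2.27 and 1.62 FPKM in knockout glands, and in the matricellular gene Ctgf, at 16.3, 1.25 and 1.36 FPKM in control glands and at 2.56, 2.82 and 1.72 FPKM in knockout glands. Without that control the median was 0.14, and without control M44175 it was -0.41, with 7 genes below both remaining controls. The labels do not tell how long each gland waited before freezing, and its part in these values was not tested.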

How the data were processed

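RNA was purified with RNeasy columns and libraries were made with the TruSeq RNA kit for a HiSeq2000, per the labels' protocols. TopHat, CASAVA, cutadapt and mouse build mm9 are named as used by the authors, per the submitters' processing notes. Not given in the sources used here are the program behind the deposited FPKM, its annotation and its treatment of shared reads. Exact zeros were kept as 0. Depth per library is known only relative to the other libraries, from low values: 70.9% of 27125 pairs under 0.3 FPKM stood in a ratio of whole numbers (up to 5) to within 0.02 log2 units. No counting interval can be given.

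From the deposited FPKM of the lactation table, which was not compared with the involution table, each library was divided by a median-of-ratios factor (0.954 to 1.12, over 7847 genes with 1 FPKM or more in all 6 libraries) and transformed to log2 after adding a pseudocount of 1, which understates changes of low genes. Genes with 1 FPKM or more in at least 3 libraries were tested with limma 3.58.1 in R 4.3.3 (eBayes with trend, no covariates, two-sided, Benjamini-Hochberg over all genes, threshold 0.05). The fit was tested on simulated data. The members and gene lists were chosen with earlier results of these data known. Genes were named by rule: past the threshold; the 10 largest differences each way among named genes that separate the groups, are above 0 in all 6 libraries and average 5 FPKM or more in a group; the 20 highest; JAK-STAT members; of each list the 3 highest and the 2 with smallest p; the 5 highest and 5 lowest in control M44175; and entries at 0 throughout 1 group and at 10 FPKM or more throughout the other. Other genes in the text are list members given as levels and were chosen for their known role. Some genes that the rule names are not reported here. Transcript lengths came from GENCODE vM21 and promoters and microRNAs from RefSeq tables (GRCm38.p6), used for sequence only, since the files use mm9. Alternatives were another pseudocount, filters, scalings, weights, each library left out and, added after seeing the data, control M44175 left out on the same genes, short RNA left out and the length trend removed.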

Additional observations from a re-analysis of the deposited data

How the results depend on the processing

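The count of 1 gene past the threshold became 2 with a pseudocount of 0.1, 2 with scaling to the total outside milk proteins and short RNA, 9 with array weights, and 0 with a filter of 1 FPKM in all 6 libraries, without genes listed at 0 in a whole group and without short RNA entries. The settings that gave 0 each removed Rn45s itself from the genes tested, so they could not keep its call. It was 0 to 3 with 1 library left out, and no filter, no rescaling, quantile normalization and robust empirical Bayes kept it at 1. With the length trend removed the 1 gene was Hba-a2, and Rn45s, which has no annotated length, was not tested. Genes whose groups do not overlap numbered 579 with all libraries and 882 to 2082 with 1 left out, where fewer values must separate. The Jak1 difference of -0.00 was 0.0073 with a pseudocount of 0.1, 0.18 with scaling outside milk proteins and -0.41 to 0.22 with 1 library left out. Lalba turned to 0.020 without control M44175 on either set of genes (-0.90 to 0.020 with 1 library left out), and Slc7a5 to 0.036 without control M42186 (-1.20 to 0.036). The cause of these turns was not tested. Of the medians of 32 lists, 10 kept their sign in every alternative that gave a value, among them adipocytes, fibroblasts, endothelium, matrix, cholesterol and fatty acid synthesis. No paired analysis was possible because the control and knockout libraries at lactation share no number. With 3 libraries a group, the median half-width of the unadjusted interval was 0.59, which is not the smallest detectable difference. Larger differences also failed the adjusted threshold, such as that of Plin1 (1.40, adjusted p = 0.644 with limma).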

Other observations

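Genes of the tight junctions that seal the alveoli showed no common direction. Of 16 tested, 7 were positive, the median was -0.06 (0.01 without control M44175, 0.12 with scaling outside milk proteins and 0.02 with array weights), and none separated the groups. Cldn8, a claudin of the lactating gland, stood at 54.5, 100.5 and 201 FPKM in control glands and at 77.6, 90.4 and 69.1 FPKM in knockout glands, and Ocln, occludin, at 4.75, 4.36 and 11.3 FPKM in control glands and at 5.01, 5.43 and 3.795 FPKM in knockout glands. Genes of cell death and the lysosome mostly overlapped between the groups, with 13 of 25 positive and a median of 0.00. Ctsd, the lysosomal protease cathepsin D, stood at 222, 204 and 259 FPKM in control glands and at 312, 197 and 234 FPKM in knockout glands. Of the 25, 1 lay above every control in each knockout and 1 lay below, near the shares of all genes (2.89% and 3.17%). The 1 above was the tumour necrosis factor receptor gene Tnfrsf1a, at 16.8, 17.8 and 11.6 FPKM in control glands and at 19.6, 19.8 and 19.7 FPKM in knockout glands. The polymeric immunoglobulin receptor gene Pigr, which carries IgA into milk, ran from 68.2 to 337 FPKM among the knockouts alone, and the J chain gene Igj stood at 73.8, 64.95 and 80.01 FPKM in control glands and at 28.04, 117 and 73.7 FPKM in knockout glands. Knockout M44174 was the lowest library in both.

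With array weights, the genes past the threshold were Rn45s, Hba-a2, Gsn, Mir22, Tshb, Htra3, Plin1, Serpinf1 and Cyp1a1, of which Tshb, Htra3, Serpinf1 and Cyp1a1 were chosen after their values were seen. Htra3, a secreted serine protease of stroma, stood at 2.12, 1.94 and 1.62 FPKM in control glands and at 6.65, 5.56 and 4.77 FPKM in knockout glands, and Serpinf1, the secreted pigment epithelium-derived factor, at 7.51, 4.56 and 5.54 FPKM in control glands and at 12.7, 12.7 and 12.5 FPKM in knockout glands. Tshb, the beta chain of thyrotropin, stood at 2.696, 3.19 and 5.53 FPKM in control glands and at 1.03, 0.811 and 0.912 FPKM in knockout glands. Each knockout lay on 1 side of each control in these 3 genes.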
